A study of Homo sapiens with 18 samples.

Results

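Transcript levels of 10 genes of antigen processing were followed in OVCAR3 cells exposed to antibodies. The genes encode the peptide transporter (TAP1, TAP2), its bridging chaperone tapasin (TAPBP), the inducible catalytic subunits of the immunoproteasome (PSMB8, PSMB9, PSMB10), the proteasome activator PA28 (PSME1, PSME2) and the trimming peptidases of the endoplasmic reticulum (ERAP1, ERAP2). They were selected by symbol as members of one pathway, with earlier results of these data known, and are 10 of the 55765 genes in the count tables. OVCAR3 is a long-established line from a human ovarian carcinoma of the high-grade serous type, grown here in RPMI medium with 2% fetal bovine serum. In a first series of 9 libraries, 3 samples received human IgA of no particular specificity at 0.5 µg/ml, 3 received human IgG likewise, and 3 were untreated. In a second series of 9 libraries, 3 samples received IgA specific for BDNF, a neurotrophin, 3 received IgA specific for TSPAN7, a tetraspanin of the cell surface, both at 0.5 µg/ml, and 3 were untreated. Exposure lasted 24 h per the labels, although another description of the experiment gives 8 h. All 6 groups are the same line without genetic change, and no donor tumour, T cell or other immune cell was present by design. Each series was compared within itself, since its libraries were normalized together.

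Cells display fragments of their own proteins on MHC class I molecules, where cytotoxic T cells read them. Proteasomes cut the proteins. In cells exposed to interferon the inducible subunits PSMB8 (LMP7), PSMB9 (LMP2) and PSMB10 (MECL-1) take the places of PSMB5, PSMB6 and PSMB7, and the PA28 ring of PSME1 and PSME2 opens the chamber. TAP1 and TAP2 pump the peptides into the endoplasmic reticulum, ERAP1 and ERAP2 trim them, and tapasin holds an empty class I molecule next to the pump until it is loaded. Interferons raise transcription of these genes through IRF1 and a complex that holds STAT2 and IRF9, which bind interferon-stimulated response elements (ISRE) and gamma-activated sites (GAS), and NF-κB acts on some of them through κB sites. Carcinomas often carry little of this machinery, which is one way in which they escape T cells.

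Promoter sequences are shown because the 10 genes are usually grouped by their interferon control. The windows ran from 250 bases before to 50 bases after each annotated start (RefSeq, GRCh38.p14), and all 10 genes had at least 1 window. The ISRE core was searched as GAAANNGAAA, the GAS element as TTCNNNGAA and the κB element by name, each on both strands, and the letters of one motif may overlap those of another. The ISRE core occurred in 9 of the 10 genes, against 4.38% of 27305 genes with a window. PSMB9 was the exception, within its own window. That window (chr6:32853942-32854241, plus strand) overlaps the end of the TAP1 window (chr6:32853655-32853954, minus strand). The TAP1 copies printed below lie between the starts of TAP1 and PSMB9, just outside the PSMB9 window. In the stretches below, each printed 5′ to 3′ on the gene's own strand, capitals mark the ISRE core. TAP1 and TAPBP hold 2 overlapping copies, and in TAP1 they lie on the opposite strand.
TAP1, chr6:32853811-32853850, minus strand: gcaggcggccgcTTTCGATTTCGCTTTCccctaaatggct
TAP2, chr6:32838776-32838809, minus strand: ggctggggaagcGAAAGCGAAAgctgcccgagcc
TAPBP, chr6:33314079-33314110, minus strand: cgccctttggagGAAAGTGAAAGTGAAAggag
PSMB10, chr16:67936851-67936883, minus strand: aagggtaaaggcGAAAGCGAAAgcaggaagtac
PSME2, chr14:24146617-24146650, minus strand: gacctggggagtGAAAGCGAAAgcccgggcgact
ERAP2, chr5:96876458-96876491, plus strand: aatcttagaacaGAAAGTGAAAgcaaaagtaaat

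The copies in TAP1 began 134 and 128 bases before its start, that of TAP2 58 bases, those of TAPBP 20 and 14, that of PSMB10 21, that of PSME2 28 and that of ERAP2, in its second window, 30. PSMB8 had, in its second window, a copy that began 4 bases before the annotated start, while those of PSME1 and ERAP1 began 6 and 3 bases after theirs. GAS elements were found in TAP1 and PSMB8, against 9.38% of all genes, and κB elements in TAP1, TAPBP and ERAP1, against 7.09%. A match is a string of letters and not an occupied site, and its absence from a window says nothing of the factor.

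**Figure D1:**
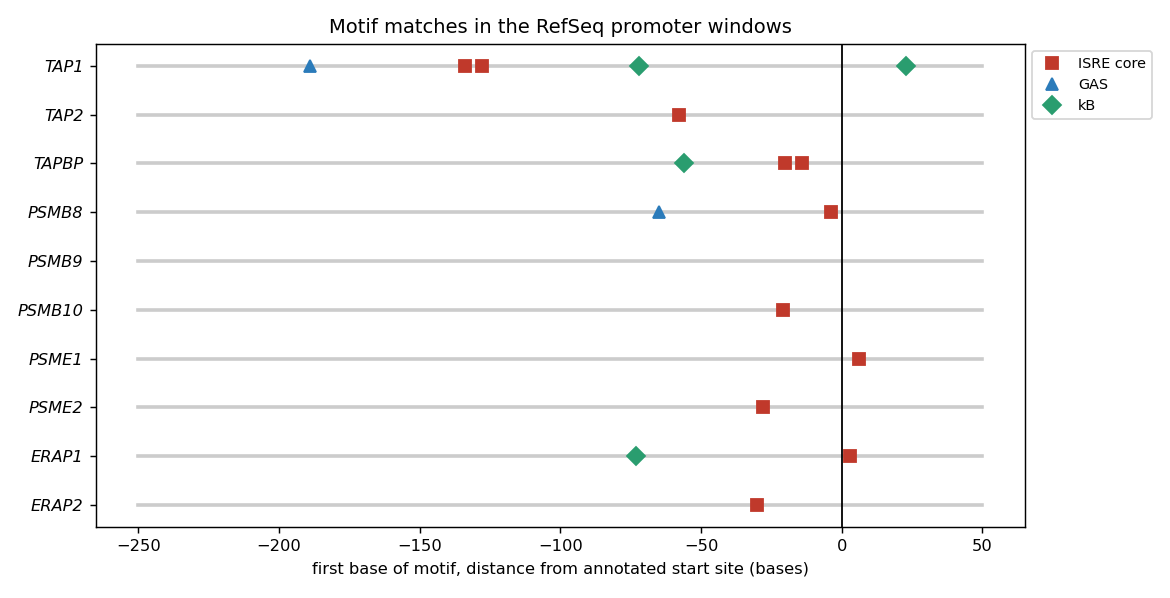
Positions of motif matches in the promoter windows of the 10 genes, with the distance of a match's first base from the annotated start site in bases on the x axis and 1 row per gene, all its windows drawn together. Colours mark ISRE core, GAS and κB matches, and 9 of the 10 genes carry an ISRE core in a window while PSMB9 carries none in its own. The TAP1 copies lie just outside the PSMB9 window.

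TAP1, TAP2, TAPBP, PSMB8 and PSMB9 lie in the class II part of the MHC or just beside it on chromosome 6 (GRCh37). The neighbouring loci are TAP2 (chr6:32789610-32806516), PSMB8 (chr6:32808494-32812456), PSMB9 (chr6:32811913-32827628) and TAP1 (chr6:32812986-32821593), with TAPBP at chr6:33267471-33282061. PSME1 (chr14:24605372-24608176) and PSME2 (chr14:24612571-24616779) are neighbours on chromosome 14, and ERAP1 (chr5:96096514-96143803) and ERAP2 (chr5:96211690-96255407) on chromosome 5. PSMB10 stands alone at chr16:67968409-67970767. Overlap with other genes makes some counts uncertain. For a gene on the opposite strand this is because no source states that strand was used in counting. For a gene on the same strand, strand could not part the reads in any case. Exons of another gene cover 21.5% of the TAP1 transcript (the antisense gene PSMB8-AS1) and 40.5% of TAPBP (opposite strand). They cover 35.8% of TAP2 and 56.1% of PSMB10, both on the same strand. The share was 13.2% for ERAP1, 0.415% for PSME1 and 0 for PSMB8, PSMB9, PSME2 and ERAP2, although 7.93% of the 75-base windows of PSME2 also occur elsewhere, mostly in its pseudogenes.

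The depth was 27920733 to 42371474 counts per library for the 9 libraries of the first series. It was 39254350 to 47381836 for those of the second, once 2055 exact duplicate rows had been dropped. IgA replicate 3 stood apart. The mitochondrial genome supplied 19.1% of its counts, against 5.75% to 8.316% in the other 8 libraries beside it and 8.6% to 10.17% in the second series. Results of the 10 genes with non-specific IgA whose call or size moved most without it are given both ways. PAX8, a marker of the carcinoma line, had at least 16861 counts in each library of the first series, and 10 of 13 leukocyte markers never exceeded 20 counts. Other carcinoma markers are not reported here. The summed level of the 13 leukocyte markers was 80.94 to 109.9 normalized counts with non-specific IgA, 60.09 to 71.87 with IgG and 65.41 to 82.39 in the untreated cells beside them. In the second series it was 83.64 to 85.9 with BDNF IgA, 85.88 to 100.1 with TSPAN7 IgA and 41.47 to 98.43 in untreated cells, with CD3D at 0 throughout. PTPRC (CD45), the pan-leukocyte marker, never exceeded 56 counts (first series) or 24 (second). It stood at 15.8 to 56 normalized counts with non-specific IgA, 14.6 to 25.2 with IgG and 13.5 to 24.9 in the untreated cells beside them, and at 17.1 to 19 with BDNF IgA, 10.8 to 25.3 with TSPAN7 IgA and 6.08 to 9.03 in untreated cells of the second series. Both antigen-specific groups were clear of untreated cells, and PTPRC was called higher with TSPAN7 IgA (log2 1.39 ± 0.43, edgeR adjusted p = 0.0487) but not with BDNF IgA (1.24 ± 0.44, 0.0864). The part of these markers in the results was not tested. Here and in what follows a normalized count is a count brought to one common effective library size within its series.

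In untreated cells the PA28 genes were the most abundant of the 10, and TAP1 had the lowest mean of them in the first series. The levels here are normalized counts per kilobase of the canonical transcript, and their order is a description. PSME1 stood at 8639 ± 416 (SD, n = 3) per kilobase in the first series and PSME2 at 3629 ± 101. TAPBP followed at 1924 ± 56.3, PSMB8 at 635.8 ± 29.1, PSMB9 at 411.8 ± 12.9 and TAP2 at 302.5 ± 17. Each of these levels was separate from its neighbours in every library. ERAP1 (251 ± 21.2), PSMB10 (192.6 ± 33.4), ERAP2 (182.5 ± 25.5) and TAP1 (159.6 ± 15.6) formed the lower end, where each gene overlapped the next. The second series had the same 5 genes at the top, from 8996 ± 210 for PSME1 to 665.9 ± 39.3 for PSMB9. Below them came ERAP2 at 483.2 ± 13, TAP1 at 329.7 ± 13.9, TAP2 at 320.7 ± 13.5, PSMB10 at 286.4 ± 15 and ERAP1 at 272.3 ± 13.4, of which TAP1 and TAP2 overlapped, as did PSMB10 and ERAP1.

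The first series asked how tumour cells respond to IgA whatever its specificity, with IgG as the control antibody. TAP1 was the 1 gene of the 10 that passed the test, at about double its control level, and the other 9 did not pass. In untreated cells TAP1 stood at 477, 409 and 399.6 normalized counts in replicates 1, 2 and 3. With IgG it stood at 429, 529 and 379, and with non-specific IgA at 816, 659 and 1193. All IgA libraries lay above all other libraries of the series, with replicate 3 the highest. The mean was 889 ± 274 with IgA against 446 ± 76.4 with IgG and 429 ± 41.9 in untreated cells (SD, n = 3 each). The log2 fold change was 0.99 ± 0.20 (SE) over IgG, a 1.99-fold rise (edgeR, Benjamini-Hochberg adjusted p = 0.00405), and 1.05 ± 0.20 over untreated cells (2.07-fold, edgeR adjusted p = 0.0027). Over all 18012 genes tested, 12.6% were called higher and 11.6% lower against IgG, and 12.9% and 12.1% against untreated cells, so 1 call of 10 is near the background. As RNA came from whole cultures, fewer or more cells with a transcript and less or more of it per cell cannot be told apart. Without IgA replicate 3 the log2 fold change of TAP1 was 0.72 over IgG (edgeR adjusted p = 0.00533) and 0.78 over untreated cells (0.00306), and the call held in all 18 alternatives of both comparisons.

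**Figure D2:**
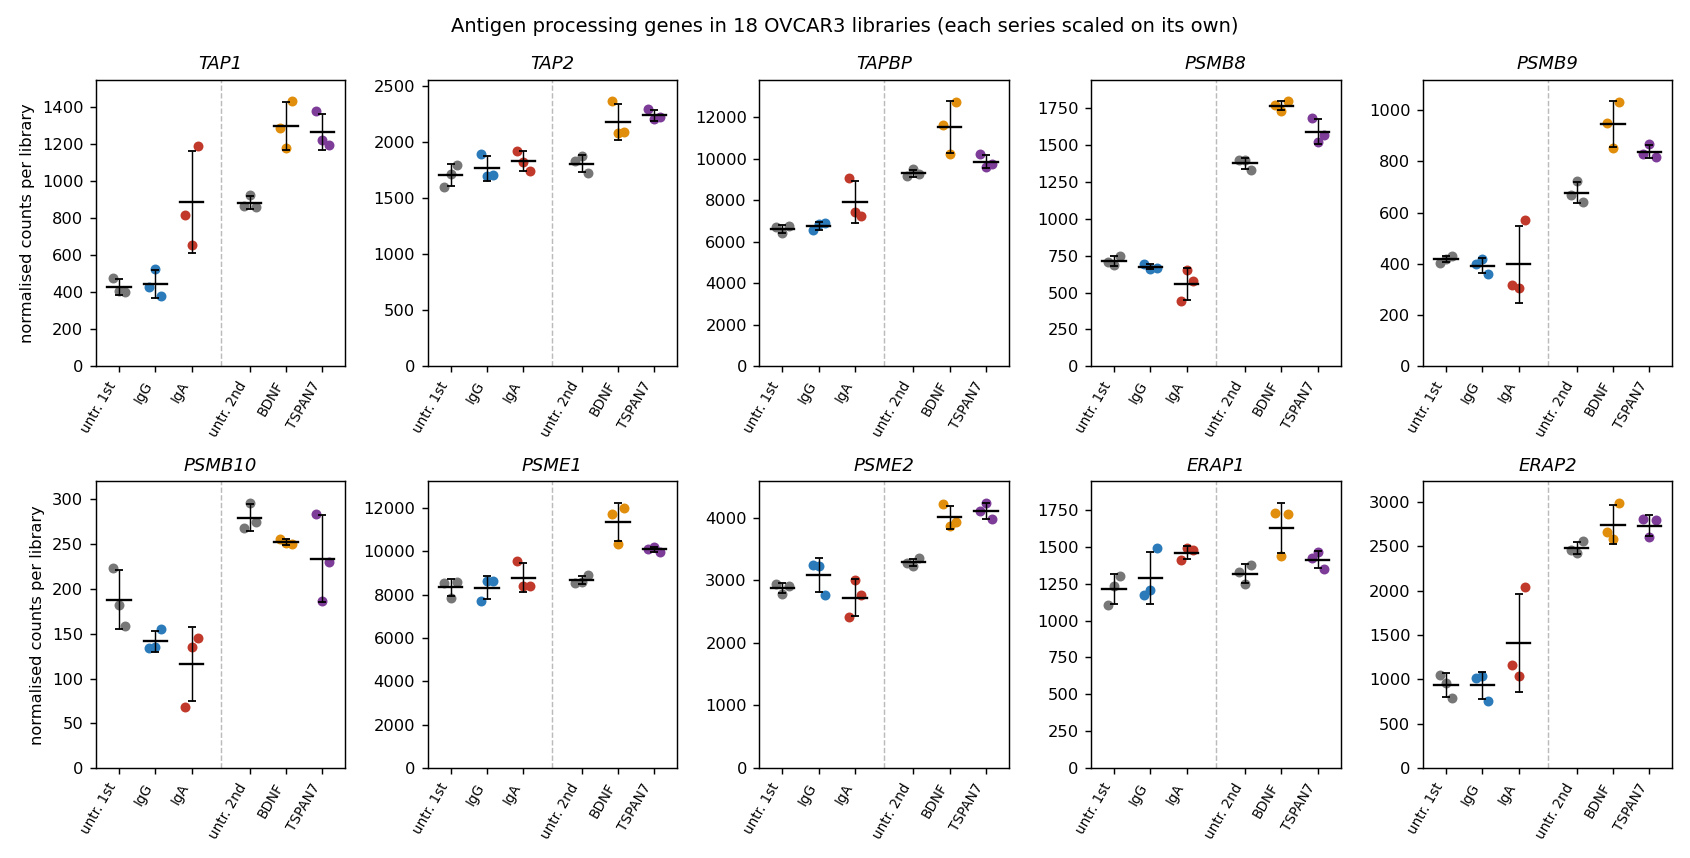
Normalized counts of each of the 10 genes by group, on a linear y axis that starts at 0, with 1 point per library (3 per group). Bars are the group mean ± SD, and a dashed line parts the 2 series, which were normalized apart. TAP1 points of non-specific IgA (659 to 1193) all lie above those of IgG (379 to 529).

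TAP2, which forms the pump together with TAP1, did not pass the test. Its normalized counts were 1605, 1719 and 1796 in untreated cells, 1895, 1701 and 1708 with IgG and 1924, 1821 and 1749 with IgA, and the groups overlapped. Its log2 difference was 0.05 ± 0.10 over IgG (edgeR adjusted p = 0.745) and 0.10 over untreated cells (0.488). TAPBP stood at 6725, 6416 and 6774 in untreated cells, 6569.6, 6841 and 6904 with IgG, and 9062, 7462 and 7241 with IgA. All 3 IgA libraries were above all others, yet TAPBP missed the threshold, with a log2 difference of 0.23 ± 0.10 over IgG (edgeR adjusted p = 0.118) and 0.26 ± 0.10 over untreated cells (0.0805). Without IgA replicate 3 it passed in both, at 0.28 (edgeR adjusted p = 0.0445) and 0.31 (0.0284).

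None of the inducible proteasome subunits was higher with non-specific IgA by the test. PSMB8 stood at 710.2, 684 and 749 normalized counts in untreated cells, 693, 661 and 669.8 with IgG and 443, 656 and 581 with IgA. Every IgA library was below every IgG and untreated library, with replicate 1 the lowest. The log2 difference of PSMB8 was -0.27 ± 0.14 against IgG (edgeR adjusted p = 0.193) and -0.35 ± 0.14 against untreated cells (0.0913), and neither passed. Against untreated cells it passed without IgA replicate 2, at -0.49 (edgeR adjusted p = 0.0247). PSMB9 was split within the IgA group, at 318 and 306 in replicates 1 and 2 and 570.3 in replicate 3. Untreated cells had 405, 420.4 and 431, and IgG cells 399, 421 and 360.1, so the first IgA pair lay below and the third library above all controls. Over the 3 libraries its log2 difference was 0.01 ± 0.21 against IgG (edgeR adjusted p = 0.98) and -0.08 ± 0.21 against untreated cells (0.813). Without IgA replicate 3 it was -0.34 (edgeR adjusted p = 0.0934) and -0.43 (0.0377), the latter past the threshold.

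PSMB10 was the least abundant of the inducible subunits by count, at 61 to 217 counts in a library of the first series. It stood at 223, 182 and 159 normalized counts in untreated cells, 134, 136 and 155 with IgG and 68.4, 135 and 145 with IgA. The IgA libraries lay below every untreated library but overlapped those of IgG. Its log2 difference was -0.29 ± 0.27 against IgG (edgeR adjusted p = 0.467) and -0.70 ± 0.27 against untreated cells (0.0732). Without IgA replicate 3 the latter was -0.88 and passed (edgeR adjusted p = 0.0278).

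Neither PA28 gene passed the test. PSME1 stood at 8564, 7874 and 8574 in untreated cells, 7723, 8634 and 8616 with IgG and 9547, 8416 and 8391 with IgA, with overlap among all groups. PSME2 stood at 2936, 2786 and 2911 in untreated cells, 3242, 3230.3 and 2770.2 with IgG and 2409, 2996 and 2761 with IgA. The groups again overlapped. The log2 differences from IgG were 0.08 ± 0.10 for PSME1 (edgeR adjusted p = 0.589) and -0.18 ± 0.11 for PSME2 (0.243).

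ERAP2 showed the second largest upward difference of the 10, carried by 1 library. It stood at 1053, 962 and 795 in untreated cells, 1011, 1032 and 754 with IgG and 1156, 1036 and 2042 with IgA. Replicate 3 stood well above every other library, and the IgA group was just clear of IgG but not of untreated cells. The log2 difference was 0.59 ± 0.22 against IgG (edgeR adjusted p = 0.0685) and 0.59 ± 0.22 against untreated cells (0.0692). Without IgA replicate 3 both were 0.23 (edgeR adjusted p = 0.284 and 0.289), and without IgA replicate 2 both passed, at 0.77 (0.0213 and 0.0215). ERAP1 was evener, at 1103, 1238 and 1304 in untreated cells, 1170.4, 1205 and 1491 with IgG and 1414, 1495 and 1475 with IgA. Its IgA libraries lay above the untreated ones but not above all of IgG, and the log2 difference of 0.27 ± 0.12 against untreated cells did not pass (edgeR adjusted p = 0.115).

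Groups did not overlap in 4 of the 10 genes against IgG, where 40.3% of all genes tested had none, and in 5 of 10 against untreated cells, where the share was 39.9%. Between IgG and untreated cells none of the 10 genes passed the test. None of all genes tested did either (0%, with 89 genes at an unadjusted p under 0.05 by edgeR, and 110 with 0 called by DESeq2). Groups did not overlap in 1 of the 10, PSMB10, against 6.75% of all genes, with a log2 difference of -0.41 ± 0.26. The other 9 differed by -0.09 to 0.10. Scaling by library size alone turned several small differences from IgG negative, namely TAP2 (-0.18), TAPBP (-0.0051), PSMB9 (-0.26), PSME1 (-0.16) and ERAP1 (-0.05), while TAP1 stayed called higher and PSMB8 (-0.50, edgeR adjusted p = 0.0432) and PSME2 (-0.41, 0.0431) were called lower. The share of all calls that were higher then went from 51.9% to 19.4% against IgG and from 51.4% to 23.3% against untreated cells. Both IgA comparisons use the same IgA libraries, and the untreated libraries serve 2 comparisons, so these results are not independent of each other.

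In the second series, which asked how cells respond to IgA against named antigens, most of the 10 genes rose. This series had no control antibody, and per the paper these IgA were purified from medium of immortalized B cells. Responses to the antigen, to any IgA and to the preparation therefore cannot be told apart. With BDNF IgA 8 of the 10 genes were called higher and none lower, where 4.49% of 18732 genes were called higher and 3.18% lower. With TSPAN7 IgA 6 of 10 were called higher and none lower, against 4.46% and 4.08% of all genes. The median log2 fold change of the 10 was 0.31 with BDNF IgA and 0.21 with TSPAN7 IgA, while that of all genes tested was 0.0022 and -0.00072. The rises were small, the largest 1.47-fold, and the replicates of this series lay close together. The common dispersion, edgeR's measure of spread over all genes, was 0.003028 here and 0.0307 in the first series. Smaller differences could thus pass here, and counts of calls are not comparable between the series. The groups did not overlap in any of the 10 genes between BDNF IgA and untreated cells (24.8% of all genes) and in 8 of 10 between TSPAN7 IgA and untreated cells (28.4%). Both comparisons share the untreated libraries.

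TAP1 moved most. It stood at 864, 929 and 863 normalized counts in untreated cells, 1286, 1179 and 1434 with BDNF IgA and 1379, 1225 and 1194 with TSPAN7 IgA. Every treated library was above every untreated one, and the treated groups overlapped each other. The log2 fold change was 0.55 ± 0.07 with BDNF IgA (1.47-fold, edgeR adjusted p = 4.36e-05) and 0.52 ± 0.07 with TSPAN7 IgA (1.43-fold, 8.87e-05). TAP2 also rose here. From 1829, 1874 and 1726 in untreated cells it went to 2369, 2088 and 2089.9 with BDNF IgA and 2295, 2206 and 2223 with TSPAN7 IgA, again with no overlap with untreated cells. The log2 fold change was 0.27 ± 0.06 (1.21-fold, edgeR adjusted p = 0.00414) and 0.31 ± 0.06 (1.24-fold, 0.0012).

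Tapasin passed the test against untreated cells with BDNF IgA and not with TSPAN7 IgA. TAPBP stood at 9185, 9505 and 9253 in untreated cells, 11642, 10229 and 12738 with BDNF IgA and 10226, 9604 and 9766 with TSPAN7 IgA. The TSPAN7 IgA libraries lay between the other groups, above all untreated and below all BDNF IgA libraries. The log2 fold change was 0.31 ± 0.06 with BDNF IgA (1.24-fold, edgeR adjusted p = 0.00166), while 0.08 ± 0.06 with TSPAN7 IgA did not pass (0.432).

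Of the inducible subunits, PSMB8 and PSMB9 rose with both antibodies and PSMB10 with neither. PSMB8 stood at 1398, 1398 and 1330.2 in untreated cells, 1772, 1733 and 1794 with BDNF IgA and 1683, 1519.9 and 1564 with TSPAN7 IgA, so that the 3 groups were ordered without overlap. Its log2 fold change was 0.36 ± 0.05 with BDNF IgA (1.28-fold, edgeR adjusted p = 0.00021) and 0.21 ± 0.06 with TSPAN7 IgA (1.16-fold, 0.0194). Leaving out untreated replicate 3 (edgeR adjusted p = 0.0935) or TSPAN7 IgA replicate 1 (0.0934) ended the latter call. PSMB9 stood at 668, 721 and 643 in untreated cells, 949.8, 851 and 1032 with BDNF IgA and 829.9, 865 and 818 with TSPAN7 IgA. Both treated groups were clear of the untreated one. The log2 fold change was 0.48 ± 0.07 (1.4-fold, edgeR adjusted p = 0.0003) and 0.31 ± 0.08 (1.24-fold, 0.0125), and the second was lost without TSPAN7 IgA replicate 2 (0.0735), untreated replicate 1 (0.0523) or untreated replicate 3 (0.0732). PSMB10 stood at 268, 296 and 275 in untreated cells, 256, 252 and 250 with BDNF IgA and 284, 187 and 231 with TSPAN7 IgA. The BDNF IgA libraries lay just under the untreated ones and those of TSPAN7 IgA were spread across them. Its log2 differences of -0.15 ± 0.12 (edgeR adjusted p = 0.532) and -0.26 ± 0.12 (0.229) did not pass, although the second did without TSPAN7 IgA replicate 1, at -0.42 (0.0432).

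Both PA28 genes rose with both antibodies. PSME1 stood at 8522, 8612 and 8909 in untreated cells, 11739, 10335 and 11998 with BDNF IgA and 10114, 10208 and 9979 with TSPAN7 IgA, in 3 groups without overlap. Its log2 fold change was 0.39 ± 0.05 with BDNF IgA (1.31-fold, edgeR adjusted p = 2.47e-05) and 0.22 ± 0.05 with TSPAN7 IgA (1.16-fold, 0.00698). PSME2 stood at 3274, 3229.7 and 3349 in untreated cells, 4218, 3865 and 3922 with BDNF IgA and 4104, 4237 and 3981 with TSPAN7 IgA. Here the treated groups overlapped each other and were clear of untreated cells, at 0.28 ± 0.05 (1.22-fold, edgeR adjusted p = 0.000526) and 0.32 ± 0.05 (1.25-fold, 0.000103).

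ERAP1 rose with BDNF IgA, from 1328, 1249 and 1378 in untreated cells to 1732, 1435 and 1724. The log2 fold change was 0.31 ± 0.07 (1.24-fold, edgeR adjusted p = 0.00694), and the call was lost without BDNF IgA replicate 1 (0.0551) or untreated replicate 2 (0.0520). With TSPAN7 IgA it stood at 1426, 1463 and 1348, which overlapped untreated cells, and the difference of 0.10 ± 0.07 did not pass (edgeR adjusted p = 0.436). ERAP2 had the smallest upward difference with BDNF IgA, at 2655, 2586 and 2990.0 against 2459, 2426 and 2554 in untreated cells, and stood at 2802, 2598 and 2792 with TSPAN7 IgA. All treated libraries lay above all untreated ones. Even so, 0.15 ± 0.06 (edgeR adjusted p = 0.112) and 0.14 ± 0.06 (0.134) missed the threshold, and the first passed without BDNF IgA replicate 2, at 0.18 (0.0225).

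**Figure D3:**
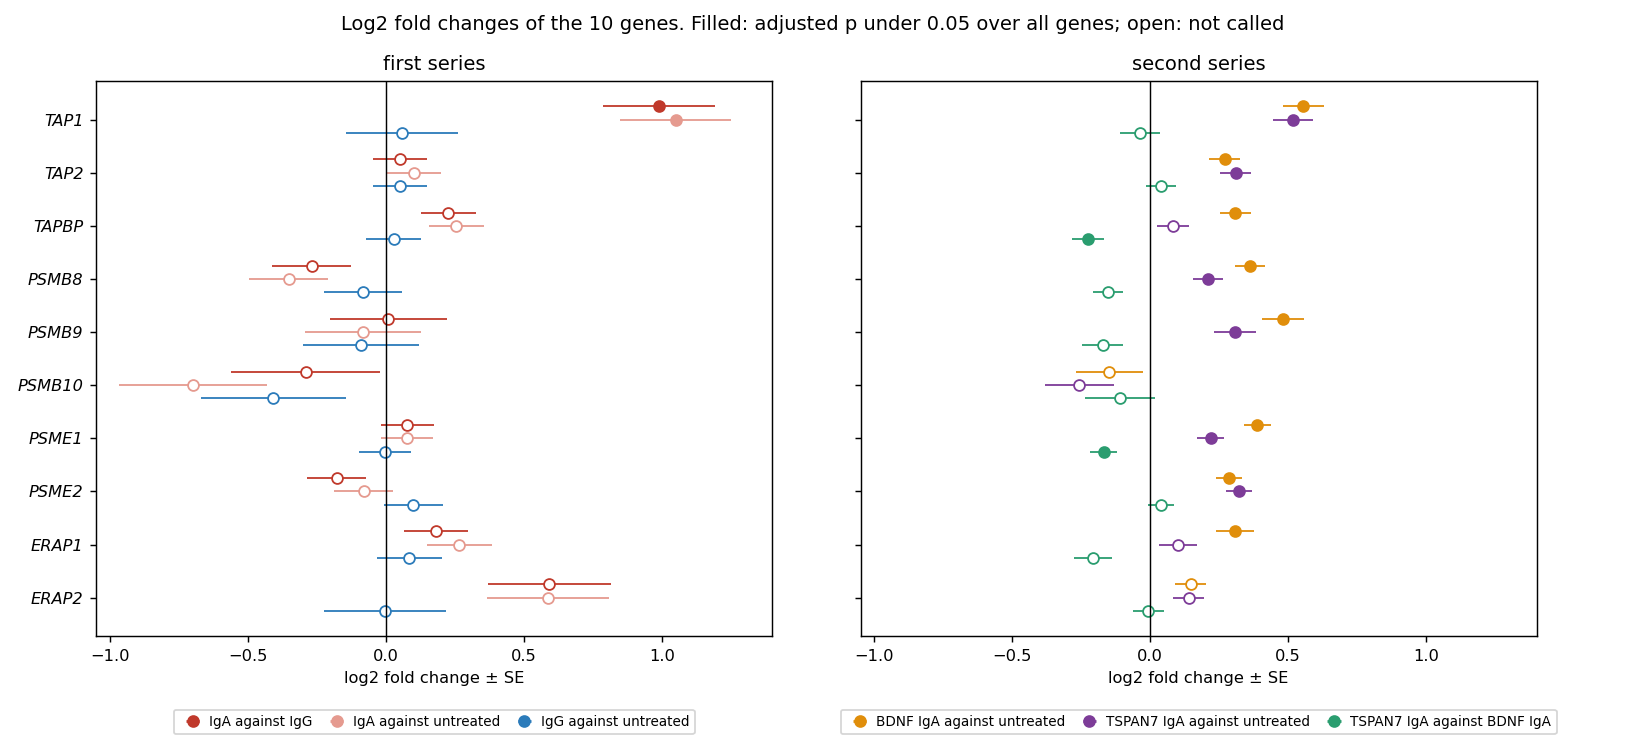
Log2 fold changes of the 10 genes in the 6 comparisons, with 1 panel per series, 1 colour per comparison and bars for the standard error. Filled points passed an adjusted p of 0.05 by edgeR, which holds for TAP1 alone with non-specific IgA, for 8 genes with BDNF IgA and for 6 with TSPAN7 IgA. Spread was larger in the first series, so these counts are not comparable between the series.

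Set directly against each other, TSPAN7 IgA and BDNF IgA differed in 2 of the 10 genes, both lower with TSPAN7 IgA. Over all genes tested, 3.42% were called higher with TSPAN7 IgA and 4.5% lower. The groups did not overlap in 3 of the 10, against 23.6% of all genes. TAPBP was lower by 0.23 ± 0.06 on the log2 scale (1.17-fold, edgeR adjusted p = 0.0181) and PSME1 by 0.17 ± 0.05 (1.12-fold, 0.0376). Neither call was firm. That of TAPBP was lost without BDNF IgA replicate 1 (edgeR adjusted p = 0.0738) or 3 (0.154) and without TSPAN7 IgA replicate 2 (0.111) or 3 (0.0692), and that of PSME1 in 9 of 18 alternatives, among them the fit of the 6 libraries compared (0.0713) and the omission of BDNF IgA replicate 1 or 3, of any TSPAN7 IgA library or of untreated replicate 1 or 2. Without BDNF IgA replicate 3 the difference in TAPBP was -0.15. PSMB8, the third gene without overlap, differed by -0.15 ± 0.05 (edgeR adjusted p = 0.0912). PSMB9 (-0.17 ± 0.07, edgeR adjusted p = 0.164) and ERAP1 (-0.21 ± 0.07, 0.0664) did not pass either, but both did without BDNF IgA replicate 2, at -0.24 (0.0205) and -0.29 (0.000958). TAP1 (-0.04 ± 0.07), TAP2 (0.04), PSME2 (0.04) and ERAP2 (-0.01) were close to 0 on the log2 scale, and PSMB10 stood at -0.11.

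Each inducible subunit takes the place of 1 constitutive subunit, so its counts were also set against those of that partner in the same library. This measure does not depend on library scaling. PSMB8 stood at 35.6%, 32.6% and 45.1% of PSMB5 in untreated cells of the first series, 30.3%, 28.6% and 41.5% with IgG and 20.2%, 27.0% and 26.4% with non-specific IgA. PSMB9 stood at 24.0%, 22.2% and 26.1% of PSMB6 in untreated cells, 21.8%, 21.8% and 24.0% with IgG and 12.9%, 15.7% and 30.9% with IgA. PSMB10 stood at 3.51%, 2.78% and 3.05% of PSMB7 in untreated cells, 2.00%, 2.11% and 3.15% with IgG and 0.793%, 1.69% and 1.76% with IgA. All IgA libraries lay below all controls for PSMB8 and PSMB10, while IgA replicate 3 was above the controls for PSMB9. The mean log2 ratios differed from IgG by -0.44 for PSMB8, -0.29 for PSMB9 and -0.83 for PSMB10, and from untreated cells by -0.62, -0.38 and -1.22. Single libraries moved several of these. The PSMB9 difference without IgA replicate 3 was -0.66 against IgG and -0.76 against untreated cells, without IgA replicate 1 it was -0.03 and -0.12, and without IgA replicate 2 it was -0.17 against IgG. Against IgG the PSMB10 difference was -0.46 without IgA replicate 1 and the PSMB8 difference -0.28 without IgG replicate 3. A ratio also falls where the partner rises. PSMB7 was called higher with IgA against both controls (given below). PSMB10 itself differed by -0.29 from IgG and by -0.70 from untreated cells, and neither passed. How much each gene contributed to the fall of the ratio was not tested.

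In the second series PSMB8 stood at 51.4%, 51.8% and 46.0% of PSMB5 in untreated cells, 66.5%, 58.4% and 67.6% with BDNF IgA and 57.0%, 46.8% and 51.6% with TSPAN7 IgA. PSMB9 stood at 32%, 32.3% and 30% of PSMB6 in untreated cells, 47.7%, 40.5% and 56.4% with BDNF IgA and 35.9%, 40.4% and 35.2% with TSPAN7 IgA. Both treated groups were clear of untreated cells for PSMB9, and BDNF IgA alone was for PSMB8. The mean log2 ratio of PSMB8 differed from untreated cells by 0.37 with BDNF IgA and 0.06 with TSPAN7 IgA, and that of PSMB9 by 0.60 and 0.24. PSMB10 stood at 3.59%, 4.02% and 3.48% of PSMB7 in untreated cells, 3.50%, 3.27% and 3.62% with BDNF IgA and 3.6%, 2.22% and 2.79% with TSPAN7 IgA, at -0.09 and -0.39. Without TSPAN7 IgA replicate 2 the last was -0.22, and without BDNF IgA replicate 2 or untreated replicate 2 the one before it was -0.05 or -0.03. The small PSMB8 difference with TSPAN7 IgA ran from -0.0154 (without TSPAN7 IgA replicate 1) to 0.127 (without TSPAN7 IgA replicate 2). An exact permutation test of 3 against 3 libraries, two-sided, cannot give a p below 0.1, the value that 9 of the 18 ratio tests reached, those in which the groups did not overlap. Adjusted by Benjamini-Hochberg over the 18 tests, the exact p ran from 0.2 to 0.5, and none passed.

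**Figure D4:**
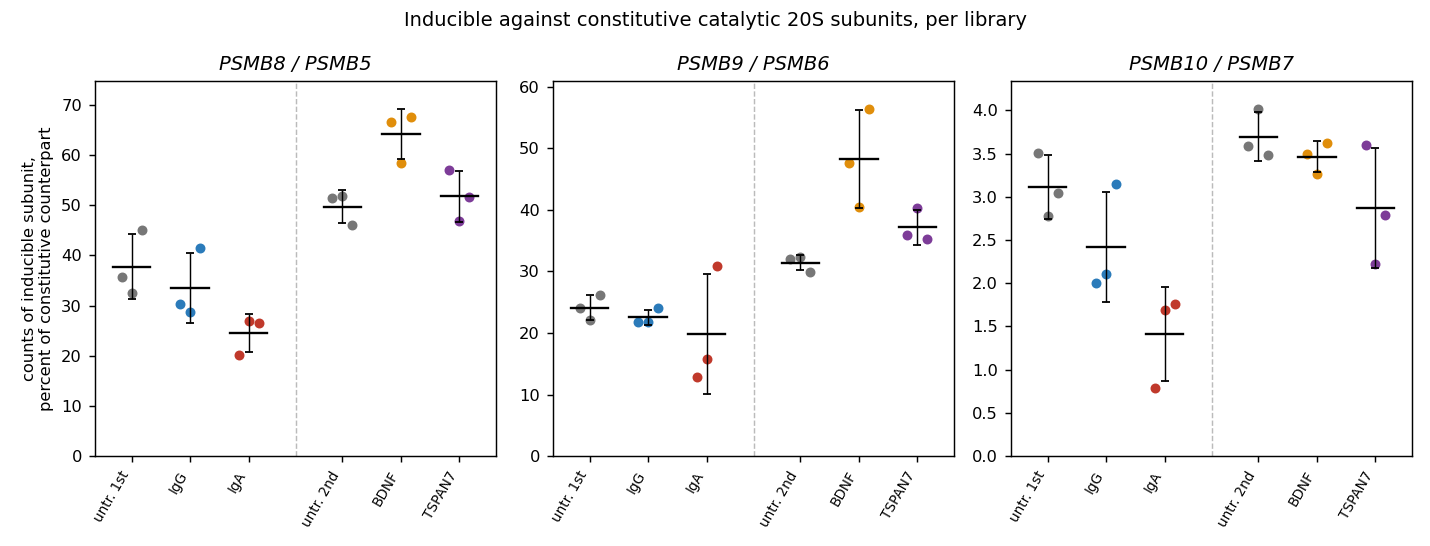
Counts of each inducible proteasome subunit as a percent of its constitutive partner in the same library (PSMB8 of PSMB5, PSMB9 of PSMB6, PSMB10 of PSMB7), with 1 point per library, 1 colour per group and bars for the group mean ± SD. PSMB9 with BDNF IgA reaches 40.5% to 56.4%, above untreated cells at 30% to 32.3%.

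The rest of the pathway was read from lists of related genes, which differed between the series. With non-specific IgA most class I chains and folding chaperones of the lists were called higher, as TAP1 was. Of 6 class I genes tested, 5 were called higher than with IgG and none lower. Among them HLA-B rose 1.69-fold (log2 0.75 ± 0.16, edgeR adjusted p = 0.00552), HLA-F 1.77-fold (0.82, 0.029), HLA-E by 0.48 on the log2 scale (0.011) and the light chain B2M by 0.46 ± 0.10 (0.00604). HLA-C did not pass, at 0.27 (edgeR adjusted p = 0.0766), and HLA-G had at most 10 counts and was not tested. Class I genes are similar and polymorphic, so counts may be lost or shared among them. Of 5 chaperones listed for class I loading, 4 were called higher than with IgG. The remaining one, TAPBPL, was not called, and without IgA replicate 2 the list had 1 gene called lower. HSPA5 (BiP), the main chaperone of the endoplasmic reticulum and a marker of its stress response, rose 5.52-fold (log2 2.47 ± 0.14, edgeR adjusted p = 2.85e-07). Calreticulin (CALR) rose 1.76-fold (0.82 ± 0.12, 0.000488), and calnexin (CANX, 0.37, 0.0115) and PDIA3 (0.38, 0.0102) rose less.

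Against untreated cells the counts were again 5 of 6 class I genes and 4 of 5 chaperones called higher, with HLA-B at 0.71 (edgeR adjusted p = 0.00733) and HSPA5 at 2.48. The list medians against IgG were 0.62 for class I and 0.38 for the chaperones on the log2 scale, beside 0.06 for the 10 genes and -0.01 for all genes tested. With scaling by library size alone, the median of all genes fell to -0.25 and that of the 10 genes turned to -0.17, while class I stayed at 0.36. Class I calls then numbered 2 against IgG and 3 against untreated cells. Without IgA replicate 3 they numbered 5 and 6, and without untreated replicate 3 those against untreated cells numbered 3. HLA-F against IgG was lost without IgA replicate 3 or any 1 of the IgG libraries, HLA-F against untreated cells without untreated replicate 3, and CANX against IgG without IgG replicate 2.

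Among the constitutive and shared parts of the proteasome several genes rose with non-specific IgA and none fell. Of the 5 constitutive counterparts (PSMB5, PSMB6, PSMB7, PSME3, PSME4), PSMB7 was called higher than with IgG (1.38-fold, log2 0.46 ± 0.13, edgeR adjusted p = 0.0181), and PSMB7 (0.46) and PSME4 (0.34) higher than in untreated cells. Of the 16 shared core subunits and assembly factors, 8 were called higher in either comparison and none lower. Against IgG the median log2 fold change of these 16 was 0.36. PSMA3 rose 1.47-fold (edgeR adjusted p = 0.0302), PSMA1 1.4-fold (0.0117), PSMB2 1.39-fold (0.0226) and PSMA4 1.34-fold (0.0244). This count rested on single libraries. Against IgG it fell to 0 without IgG replicate 3, 2 without IgG replicate 2, 2 without IgA replicate 1, and 4 or 5 when untreated replicate 1 or 2 was left out. Against untreated cells it fell to 1 without IgA replicate 1 or untreated replicate 3 and to 3 when untreated replicate 1 or 2 was left out. PSMB7 lost its call against IgG without IgA replicate 1 or IgG replicate 3 and that against untreated cells without IgA replicate 1 or untreated replicate 3, and PSME4 without untreated replicate 1 or 3. It was 9 in both without IgA replicate 3 and 0 in both with library size scaling.

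Other peptidases that cut or trim peptides in the cytosol went both ways. Of 7 tested, NRD1 (0.53, edgeR adjusted p = 0.00598), BLMH (0.48, 0.0164) and TPP2 (0.39, 0.0399) were higher than with IgG and NPEPPS lower (-0.27, 0.0378), and the counts against untreated cells were also 3 and 1. NRD1 alone of these kept its call without each single library, as BLMH lost it against IgG without IgG replicate 2 or 3 and TPP2 and NPEPPS each without 7 of the 9 libraries. Of 12 regulators of the pathway, 3 were called higher than with IgG and 1 lower, where 12.6% and 11.6% of all genes were. The median log2 difference of this list was -0.16, beside -0.01 for all genes tested. IRF1, an interferon-induced activator of TAP1 and class I genes, rose 2.28-fold over IgG (log2 1.19 ± 0.24, edgeR adjusted p = 0.00355). NFKB1, which encodes an NF-κB subunit, rose 2.16-fold (1.11 ± 0.11, 3.8e-05) and IRF2, a relative of IRF1, 1.52-fold (0.61 ± 0.11, 0.00181). CIITA, the activator of class II genes, was lower (log2 -1.66 ± 0.45, edgeR adjusted p = 0.0184) at only 4 to 113 counts, and its call against IgG did not hold without IgA replicate 1 or when IgG replicate 2 or 3 was left out. IRF1, IRF2 and NFKB1 kept their calls in all 18 alternatives. STAT2 (-0.33 ± 0.15 against IgG), IRF9 (-0.56 ± 0.46) and NLRC5 (-0.20 ± 0.20) did not pass with non-specific IgA. With IgG no gene of any list was called against untreated cells.

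**Figure D5:**
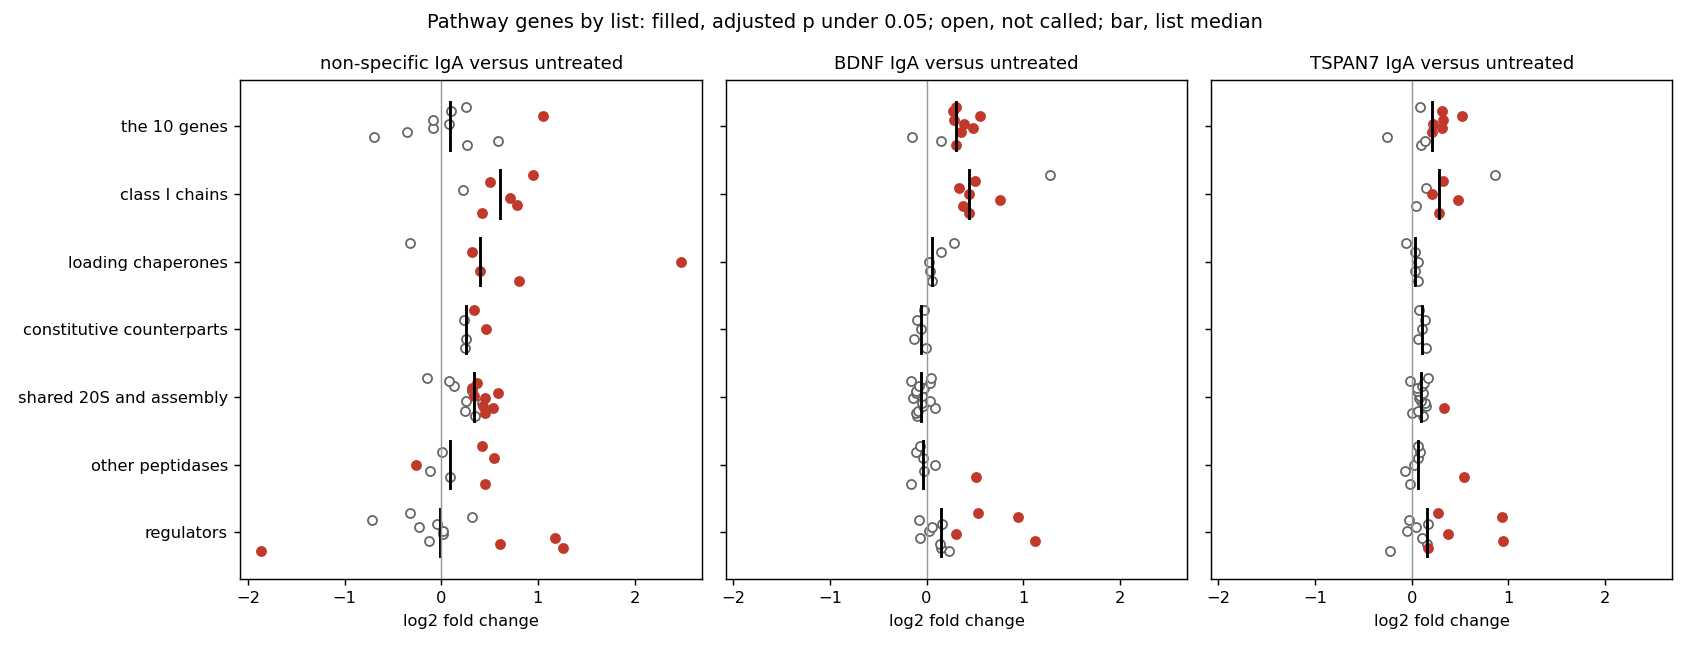
Log2 fold changes over untreated cells of the genes of each list, 1 panel per IgA and 1 point per gene, filled where the adjusted p by edgeR was under 0.05, with a bar at the list median. Class I genes sit at a median of 0.61 with non-specific IgA, 0.44 with BDNF IgA and 0.28 with TSPAN7 IgA. The shared core of the proteasome sits at 0.34, -0.06 and 0.10.

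With the antigen-specific antibodies, most class I genes tested and some of the interferon regulators rose, and 1 proteasome core gene was called, with TSPAN7 IgA. With BDNF IgA 6 of 7 class I genes were called higher and none lower. HLA-B rose 1.69-fold (log2 0.76 ± 0.06, edgeR adjusted p = 6.63e-08), HLA-F by 0.50 on the log2 scale, B2M by 0.44 (3.1e-05), HLA-C by 0.44 and HLA-E by 0.34, while HLA-G, at 7 to 27 counts, did not pass (1.28, edgeR adjusted p = 0.0837). These 6 calls held in all 18 alternatives. STAT2 (0.53, edgeR adjusted p = 4.14e-05) and IRF9 (1.12 ± 0.22, 0.00297), transcription factors of interferon signalling, rose. NLRC5, the activator of class I genes, rose by 0.30 (edgeR adjusted p = 0.0218), a call that was lost without BDNF IgA replicate 3 or any 1 untreated library. In all 4 of 12 regulators were called higher. LAP3, an interferon-induced aminopeptidase, was the 1 of 7 peptidases called (0.51, edgeR adjusted p = 2.22e-07). No constitutive counterpart, shared core subunit or chaperone was called in either direction, and their medians were -0.05, -0.06 and 0.06. Without BDNF IgA replicate 2, however, 2 counterparts and 4 core genes were called lower and 1 chaperone higher.

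With TSPAN7 IgA the class I and regulator lists again held the most calls. Of 7 class I genes 4 were called higher, namely HLA-B (0.47, edgeR adjusted p = 5.5e-05), HLA-F (0.33), B2M (0.28) and HLA-C (0.21), the last lost without TSPAN7 IgA replicate 2 or 3 or untreated replicate 1 or 2. NLRC5 (0.37, edgeR adjusted p = 0.00467), IRF9 (0.95, 0.0103) and STAT2 (0.27, 0.0183) rose, as did IRF1 (0.17, 0.0413), which is named outside the rule, among the 5 called regulators. IRF1 lost its call without BDNF IgA replicate 1 and without each TSPAN7 IgA or untreated library. IRF9 lost it without TSPAN7 IgA replicate 1 or 2 or untreated replicate 3, and STAT2 without TSPAN7 IgA replicate 1 or 2 or untreated replicate 2 or 3. LAP3 rose by 0.54 (edgeR adjusted p = 8.5e-08) and the core subunit PSMA3 by 0.33 (0.00215), and both held in all 18 alternatives. Without BDNF IgA replicate 2, which enters this comparison only through the shared scaling and spread, 2 counterparts and 3 core genes were called higher, and in the fit of the 6 libraries compared 2 counterparts and 4 core genes.

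Between the antibodies, class I and the proteasome core went opposite ways. With TSPAN7 IgA 4 of 7 class I genes were called lower than with BDNF IgA, among them HLA-B (-0.28, edgeR adjusted p = 0.00891), HLA-C (-0.23, 0.0123) and HLA-E (-0.19, 0.0497), and none higher. STAT2 was lower too (-0.26, edgeR adjusted p = 0.0249). Higher with TSPAN7 IgA were 3 of 5 counterparts, PSME3 (0.23, edgeR adjusted p = 0.0125), PSMB6 (0.20, 0.0361) and PSMB7 (0.16, 0.0369), and 5 of 16 core genes, led by PSMA3 (0.25) and PSMB2 (0.23). These counts depended on single libraries. The class I count was 0 without BDNF IgA replicate 3 or TSPAN7 IgA replicate 2 and 2 without BDNF IgA replicate 1 or TSPAN7 IgA replicate 1. The counterpart count was 0 without either of the first pair of these, 1 without BDNF IgA replicate 1, TSPAN7 IgA replicate 3 or untreated replicate 1 and 5 without BDNF IgA replicate 2. The core count was 0 without TSPAN7 IgA replicate 2, 1 without BDNF IgA replicate 3, 2 without TSPAN7 IgA replicate 3, 3 without BDNF IgA replicate 1, 8 without TSPAN7 IgA replicate 1 and 10 without BDNF IgA replicate 2. STAT2, PSME3, PSMB6 and PSMB7 were all lost without BDNF IgA replicate 3 or TSPAN7 IgA replicate 2.

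Last, each gene's pattern over the 9 libraries of a series was set beside that of TAP1, as Pearson's r of log2 CPM (counts scaled to library size). This is a description over 9 libraries in 3 groups, which share their depth and composition. In the first series, over 13505 genes, the patterns most like TAP1 were those of ERCC1 (0.991), C6orf1 (0.989), COL12A1 (0.989), PPARD (0.988) and GPC1 (0.987). Of the other 9 genes ERAP2 came closest (0.906), followed by TAPBP (0.636), while PSMB8 (-0.70), PSMB10 (-0.472) and PSME2 (-0.398) ran the other way. In the second series, over 14073 genes, the nearest were NFKBIA (0.989), DHX58 (0.983), OASL (0.983), BATF2 (0.980) and SKIV2L (0.977). DHX58, OASL and BATF2 are genes induced by interferon, and NFKBIA encodes the NF-κB inhibitor. PSMB9 (0.929), PSMB8 (0.908), PSME2 (0.897), PSME1 (0.893) and TAP2 (0.879) followed TAP1 closely there, ERAP2 (0.833), TAPBP (0.759) and ERAP1 (0.707) less so, and PSMB10 (-0.362) did not.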

How the data were processed

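RNA of OVCAR3 cells was sequenced as paired reads of 75 bases in 18 libraries, 3 in each of 6 groups, prepared with the Ovation Human FFPE RNA-Seq kit. Groups and replicate numbers came from the sample titles, which do not say whether replicates were separate cultures, so p-values measure the spread between these samples, which may be technical. The authors converted base calls with bcl2fastq (2.20.0.422 per the labels), trimmed reads with cutadapt 1.8.1 and aligned them to GRCh37 with STAR. Per the paper, featureCounts then gave the number of uniquely aligned reads of each gene, whereas the submitters' processing notes list HTSeq 0.6.1. The values the authors deposited are raw counts, without normalization. The strand setting was not given in the sources used here.

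The second count file had 57820 rows, and 2055 exact duplicates among them were dropped. Each series was fitted once over its 9 libraries with edgeR 4.0.16 in R 4.3.3 (filterByExpr, TMM scaling, quasi-likelihood F test, two-sided). P-values were adjusted by Benjamini-Hochberg over all genes tested, and calls were made below an adjusted p of 0.05. All 10 genes passed the filter in both series. The standard error is the absolute log2 fold change over the square root of F. Ratios of subunits were compared by exact permutation tests (scipy 1.17.1), with a prior count of 0.5, and log2 CPM used a prior count of 2. Within a group no library was a copy of another, as the chi-square per degree of freedom between replicates was 4.163 to 259.3. It was 74.64 to 259.3 among the non-specific IgA libraries, against 7.117 to 27.65 within the untreated and IgG groups of that series. Libraries of different groups were not compared in this way.

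The 10 genes and the pathway lists were chosen with earlier results of these data known. Named from the lists were genes called in at least 1 comparison, at most the 4 with the largest change where a list had over 8 genes, and the 5 genes most like TAP1 with a mean of at least 50 normalized counts. Some genes of the lists are not reported here by name. Alternatives were DESeq2 1.42.0, RLE and library size scaling, no filter on low counts, a filter of 10 counts in 6 libraries, omitting the genes of mitochondrial and ribosomal RNA, fitting the 6 libraries compared, a threshold of 0.01, a replicate block and leaving out each library. Counts of calls in the lists under these settings were chosen after seeing the data. The main edgeR fit was first tried on simulated data, for non-specific IgA and TSPAN7 IgA against untreated cells. The alternatives, the other comparisons and the permutation tests were not. Totals set the precision of a count, and without molecular identifiers reads may be copies of one molecule. Promoter sequences are from RefSeq on GRCh38.p14 and gene positions from GENCODE on GRCh37.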

Additional observations from a re-analysis of the deposited data

Results flagged for a closer look

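The response to TSPAN7 IgA minus that to BDNF IgA was -0.23 for TAPBP (-0.2258, edgeR adjusted p = 0.0181) and -0.17 for PSME1 (-0.1693, 0.0376) on the log2 scale, tested in the fit of the second series. PSMB8 lay on opposite sides of the untreated cells of its own series, at -0.35 (-0.3518) with non-specific IgA and every library below, against 0.36 (0.3616) with BDNF IgA and 0.21 (0.2091) with TSPAN7 IgA and every library above. The difference between these responses was not tested, since the series were normalized apart and the first of them did not pass its own test (edgeR adjusted p = 0.0913). Groups of 3 libraries were not searched for single outlying samples.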

How the results depend on the processing

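Over the alternatives, 1005 values of the 10 genes kept their direction and their side of the threshold, 23 lost a call, 23 gained one and 29 changed direction. Among called genes of the other lists 1296 held and 288 lost the call. For non-specific IgA over IgG the count of the 10 genes called higher went from 1 to 2 with DESeq2 and with no filter, and called lower from 0 to 2 with library size scaling. Against untreated cells the higher count was 2 with DESeq2 and with no filter, and the lower count 1 with DESeq2, 1 with no filter and 2 with library size scaling. For TSPAN7 IgA against BDNF IgA the lower count was 1 in the fit of the 6 libraries compared and 0 at a threshold of 0.01. At 0.01 all genes called numbered 2041 against IgG and 2130 against untreated cells with non-specific IgA, 638 with BDNF IgA, 771 with TSPAN7 IgA and 578 between them, and with no filter 2 were called between IgG and untreated cells. The cause was not tested.

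Leaving out 1 library, the 10 genes called higher numbered 1 to 2 against IgG and 1 to 2 against untreated cells with non-specific IgA, 7 to 9 with BDNF IgA and 4 to 6 with TSPAN7 IgA, and those called lower 0 to 2 with non-specific IgA against untreated cells, 0 to 1 with TSPAN7 IgA and 0 to 4 between TSPAN7 IgA and BDNF IgA. All genes called numbered 2566 to 5286, 2601 to 5229, 734 to 2798, 757 to 2304 and 482 to 3276 in these 5 comparisons, of which the first compares non-specific IgA with IgG. Log2 differences that reversed ranged from -0.34 to 0.16 (PSMB9) against IgG and from -0.43 to 0.074 (PSMB9) against untreated cells with non-specific IgA. For IgG against untreated cells they ranged from -0.0416 to 0.0497 (PSME1), -0.11 to 0.13 (ERAP2), -0.0014 to 0.0857 (TAP2), -0.0825 to 0.16 (TAP1) and -0.0322 to 0.15 (ERAP1), and for TSPAN7 IgA against BDNF IgA from -0.10 to 0.0399 (TAP1), -0.0467 to 0.0598 (ERAP2) and -0.27 to 0.029 (PSMB10). The log2 ratio of PSMB8 to PSMB5 with TSPAN7 IgA ranged from -0.0154 (without TSPAN7 IgA replicate 1) to 0.127.

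With library size scaling, differences of non-specific IgA from IgG reversed for TAP2 (-0.18), TAPBP (-0.0051), PSMB9 (-0.26), PSME1 (-0.16) and ERAP1 (-0.0514), from untreated cells for TAP2 (-0.10) and PSME1 (-0.13), and those of IgG from untreated cells for PSME1 (0.0231) and ERAP2 (0.021). PSMB9 against IgG was -0.0052 with no filter. To see whether numbers pair libraries, group means were subtracted from log2 CPM and the remainders correlated between libraries of different groups. The median r of same-numbered libraries was -0.00137 (first series) and 0.0178 (second). For other-numbered libraries it was -0.00351 and -0.0194, so the numbers were not taken to pair them. A replicate block changed no call of the 10 genes, gave 4340, 4428, 0, 1655, 1759 and 1728 genes called in the 6 comparisons, and put PSMB9 against IgG at -0.029. Counts of 61 to 217 for PSMB10 limit its precision most among the 10 genes.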
